A study of Mus musculus with 59 samples.

Results

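The potassium channel genes of mouse prefrontal cortex were followed across 59 RNA sequencing libraries. They were taken as every row of the deposited table whose Ensembl identifier stands for a protein-coding gene with a symbol beginning with Kcn and whose value was 10 or more in at least 4 libraries. The rule gave 83 genes among 17901 genes past the same filter and 18088 genes in the table, and every protein-coding Kcn row of the table passed. The GENCODE M21 annotation holds 94 such genes, and 3 further Kcn-named rows are antisense transcripts that were left out.

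The mice were Dyrk1a+/I48X heterozygotes or wild-type (WT) animals of strain C57BL/6J, and all were killed on postnatal day 25. Each had taken vehicle, lithium or fluoxetine in the milk of a dosed mother between days 3 and 24. Both sexes were sampled, which makes 12 groups; 11 of them hold 5 animals and the WT fluoxetine males 4, or 30 heterozygous and 29 WT libraries. The labels name no litter, so the p-values cover only the spread among the sampled animals, and a drug effect and a litter effect cannot be told apart.

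Potassium channels let potassium leave the cell along its gradient, which sets the resting potential, ends the action potential and limits repeated firing. A channel is built from pore-forming subunits, and the voltage-gated (Kv), calcium- or sodium-activated, inward rectifier (Kir) and two-pore-domain leak (K2P) classes differ in what opens the pore. Silent Kv subunits form no channel alone and modify Kv2 pores, and auxiliary subunits change the gating or the surface level of a pore. In cortex, Kv3 channels let interneurons fire fast, Kv7 channels carry the M current that restrains firing, and Kir channels of the G protein-gated group slow neurons when inhibitory transmitters bind.

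Values are normalised counts, that is counts divided by a size factor of the library, given as mean ± SD. A difference is of log2(value + 1) and is followed by ± its standard error. The test was limma fitted to all 17901 genes and all libraries, with Benjamini-Hochberg adjustment over all genes and a threshold of 0.05. Rose and fell are used for differences past that threshold. Counts at an unadjusted p under 0.05 are of Kcn genes only, and the shares of all genes printed near them are of adjusted calls. Library totals ran from 24391022 to 33842466 counts. Dyrk1a itself averaged 2326 ± 65.9 (n = 10) in heterozygous and 2232 ± 55.7 (n = 10) in WT vehicle mice, and over all treatments it rose by 0.13 ± 0.03 in heterozygotes, so its RNA level does not show the genotype in the labels. Replicates 3 and 4 of the heterozygous (het) fluoxetine males stand apart in several results, and values without these 2 libraries are given beside those results. In bulk tissue, fewer cells of a type and less RNA per cell cannot be told apart.

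The 83 genes covered nearly 3 orders of magnitude in level. A mean of 1000 or more was reached by 36 of them, 31 lay between 100 and 1000, and 16 were under 100; 76 were at 10 or more in all 59 libraries. Per kb of exonic length, which makes genes comparable, the highest was Kcnj4, a strong inward rectifier, at a mean of 1554 normalised counts per kb. It was followed by the Kv1 beta subunit Kcnab2 at 1411 per kb, the silent subunit Kcnf1 at 1200 per kb and the leak channel Kcnk1 at 1108 per kb. The auxiliary subunits made up 20.4% of the summed per-kb level, the Kir genes 19.9% and the silent Kv subunits 10.3%.

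**Figure D1:**
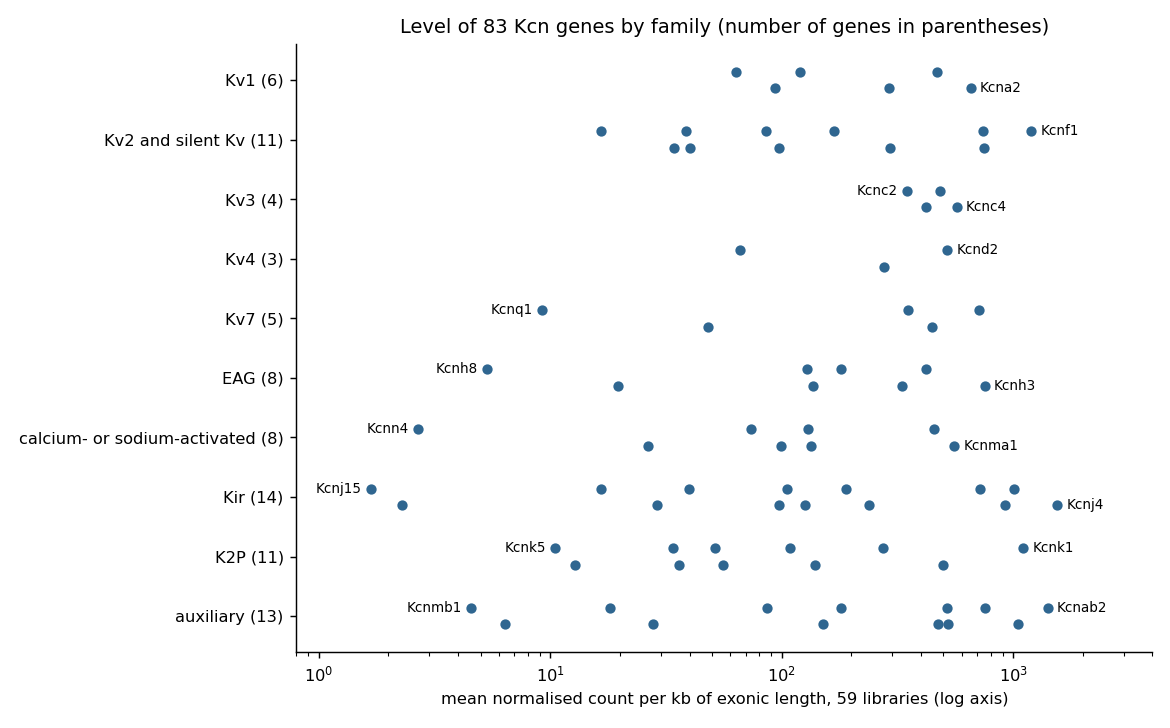
Mean normalised count per kb of exonic length over 59 libraries (log axis) for each of 83 Kcn genes, 1 point a gene, in rows by family. A few genes are named, and the silent subunits share a row with the Kv2 genes whose pores they join; Kcnj4 lies at 1554 per kb and Kcnj15 at 1.681 per kb.

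Among Kv1 genes, Kcna2, which sits beside the nodes of myelinated axons, was highest at 656.4 per kb, its partner Kcna1 reached 289.7 per kb and the A-type gene Kcna4 120.1 per kb. The somatic delayed rectifier Kcnb2 was at 85.2 per kb. The 4 fast-spiking Kv3 genes lay close together, from 348.2 per kb for Kcnc2 to 569.8 per kb for Kcnc4, with Kcnc1 at 483.9 per kb. The A-type Kv4 genes Kcnd2 and Kcnd3 were at 519.6 and 276.8 per kb, above Kcnd1 at 65.94 per kb. Their calcium-binding KChIP partners were at 753.7 per kb for Kcnip2 and 520.8 per kb for Kcnip4.

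The M-current genes Kcnq3 and Kcnq5 stood at 448.3 and 351.7 per kb, while Kcnq1, the Kv7 gene of heart and epithelia, was at 9.182 per kb. In the ether-a-go-go (EAG) family Kcnh3 led at 753.9 per kb, Kcnh7 was at 329.7, Kcnh5 at 137.1 and Kcnh8 at 5.316 per kb. Of the silent subunits, Kcnv1 reached 743.7 per kb, Kcns2 168.0 and Kcng3 16.51 per kb. The large-conductance calcium-activated pore Kcnma1 was at 556.2 per kb and its neuronal beta subunit Kcnmb4 at 516.4 per kb. The sodium-activated Kcnt1 was at 453.8 per kb, the small-conductance Kcnn2 at 130.1 and the intermediate-conductance Kcnn4 at 2.676 per kb.

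Among the G protein-gated Kir genes Kcnj9 was at 1012, Kcnj3 at 720.5 and Kcnj6 at 105.9 per kb. The astrocyte channel Kcnj10 was at 926.9 per kb, the mural-cell channel Kcnj8 at 39.87 per kb and the choroid plexus channel Kcnj13 at 29.03 per kb. Of the leak channels, Kcnk9 and Kcnk2 were at 500.0 and 273.0 per kb, and Kcnk5 was lowest at 10.53 per kb. Kcnmb1, at 4.528 per kb, was the lowest auxiliary gene; it lies inside Kcnip1 on the other strand of chromosome 11, and whether the counting used strand is not given in the sources used here.

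Under vehicle, heterozygotes and WT mice differed in these genes in males, in both directions. In males 21 of the 83 genes rose and 36 fell, which is 68.7% of them, against 36.7% of all genes tested (36.7% called in either direction, 16.7% higher and 20% lower). Their median difference was -0.12, against -0.009 over all genes. In females none passed: 0 of 83 with limma and 0 with edgeR, where 0% of all genes were called, and 1 had an unadjusted p under 0.05 in each. Among those of smallest p in females were Kcnt1 (0.23 ± 0.08) and Kcnk12 (0.21 ± 0.12), each with an adjusted p of 1.0 in limma.

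The female effect minus the male effect, tested as an interaction in limma, passed for 36 genes, 25 with a positive and 11 with a negative difference. This is 43.4% of the Kcn genes against 16% of all genes; fitted to the compared groups alone the count was 0. Averaged over the sexes, 12 rose and 13 fell, or 30.1% against 13.1% of all genes; fitted to the compared groups alone 1 passed. The largest rises of that average were Kcnk15 (2.45), Kcnh8 (0.71), Kcna5 (0.60), Kcne1l (0.52), Kcnab3 (0.50) and Kcna4 (0.36). The largest falls were Kcng3 (-0.65), Kcnab1 (-0.46), Kcnk4 (-0.45), Kcnq3 (-0.40), Kcnip4 (-0.36) and Kcng1 (-0.34). That count over both sexes rested on single libraries: it was 0 without het vehicle male replicate 3, 0 without replicate 4 of the same group, 42 without its replicate 1, and it moved by over 1.5 times for 15 of the 20 libraries. The interaction count was also 0 without het vehicle male replicate 3 or 4, and 0 without WT vehicle female replicate 4. The male count ran from 39 to 58 over the 10 libraries left out in turn.

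**Figure D2:**
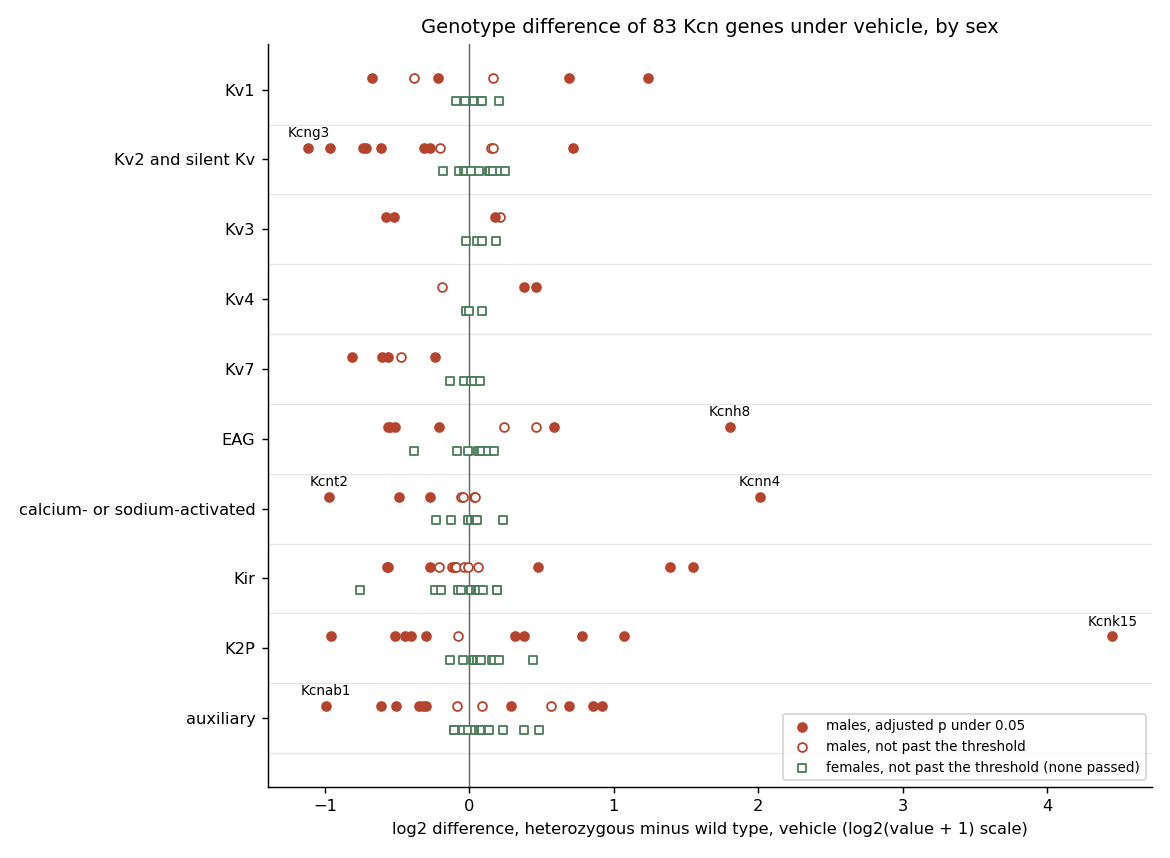
Fitted log2 difference, heterozygous minus WT under vehicle, for 83 Kcn genes in rows by family, with males as circles and females as squares. Filled symbols passed an adjusted p of 0.05; 57 of the male and 0 of the female symbols are filled, and Kcnk15 lies farthest right at 4.45.

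By family, the Kv7 genes and the silent Kv subunits had calls in 1 direction among vehicle males, where 16.7% of all genes rose and 20% fell. Of 5 Kv7 genes, 4 fell and 0 rose, among them Kcnq3 (-0.81 ± 0.18) and Kcnq5 (-0.60 ± 0.14), with adjusted p of 0.0009074 and 0.001073 in limma. Of 9 silent Kv subunits, 6 fell and 0 rose, led by Kcng3 (-1.11 ± 0.29), Kcns3 (-0.97 ± 0.22), Kcns1 (-0.73 ± 0.19) and Kcnv1 (-0.72 ± 0.23). Both A-type genes Kcnd2 (0.38 ± 0.09) and Kcnd3 (0.46 ± 0.11) rose, and the third Kv4 gene did not pass.

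The other families split. Among Kv3 genes Kcnc2 and Kcnc4 fell (-0.52 ± 0.09 and -0.58 ± 0.12) while Kcnc1 rose (0.18 ± 0.06). The Kv2 gene Kcnb2 rose (0.71 ± 0.18). Of 11 leak channels 5 rose and 5 fell, of 14 Kir genes 3 rose and 3 fell, and of 13 auxiliary genes 4 rose and 6 fell. With 36.7% of all genes called here, the share of the Kir genes is near the background. The largest rises were Kcnk15 (4.45 ± 1.0), Kcnn4 (2.01 ± 0.66), Kcnh8 (1.80 ± 0.34), Kcnj5 (1.55 ± 0.60), Kcnj15 (1.39 ± 0.47) and Kcna5 (1.24 ± 0.26). All 6 are low genes, with Kcna5 the highest of them at 63.69 per kb. With 5 added in place of 1, Kcnn4, Kcnj5 and Kcnj15 went to 1.37, 0.97 and 0.96 and still passed. Their calls were lost in 3, 5 and 3 of 10 fits that left out 1 library. None of these 3 genes passed when the compared groups were fitted alone. The largest falls after Kcng3 were the beta subunit Kcnab1 (-0.99 ± 0.20), the sodium-activated Kcnt2 (-0.97 ± 0.26), Kcns3, and the mechanically gated leak channel Kcnk4 (-0.96 ± 0.20).

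Kcnk15, a two-pore-domain subunit that gives little current alone, lies on chromosome 2 (163853651 to 163859746 in GRCm38). Its values in the 5 heterozygous vehicle males were 19.26, 29.02, 99.71, 88.08 and 63.47, and in the 5 WT vehicle males 8.189, 0.9696, 0.0, 0.9274 and 1.016. Every heterozygous male was above every WT male. In vehicle females it ran from 0.0 to 44.61 in heterozygotes and from 0.0 to 50.23 in WT mice, and these ranges overlapped. Because WT males are near 0, the size of the log2 difference depends on the added constant: it was 4.45 with 1 and 3.05 with 5.

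Kcnq3, a pore subunit of the M channel, lies on chromosome 15 (65986387 to 66286642). Its heterozygous vehicle males read 7862, 6941, 2645, 2977 and 4729, and its WT vehicle males 6281, 9257, 8662, 8188 and 8201. Replicates 3, 4 and 5 were below all WT males, and replicates 1 and 2 were within their range. Kcnab1 showed the same order of libraries, with 1730, 1334, 545.4, 559.2 and 961.7 in heterozygous and 1699, 2049, 1851, 1794 and 1825 in WT vehicle males.

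Kcna4 was at 574.4, 616.7, 1011, 1098 and 735.7 in heterozygous and at 487.2, 485.8, 465.9, 470.2 and 505.1 in WT vehicle males (0.69 ± 0.15). Replicates 3 and 4 were again the farthest from WT, now above it. Kcnab3, a further Kv1 beta subunit, read 1189, 1368, 2115, 2258 and 1691 against 777.9, 959.0, 975.9, 895.9 and 1022 in WT males (0.86 ± 0.18). Kcnc1 read 4574, 4765, 5192, 5141 and 4729 in heterozygous and 4054, 4715, 4316, 4358 and 4112 in WT males, so that 4 of 5 heterozygous males were above all WT males. Across all 83 genes the male groups did not overlap for 11 that were higher and 5 that were lower in heterozygotes, against 12% of all genes. In females no Kcn gene separated the genotypes, against 0.704% of all genes.

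**Figure D3:**
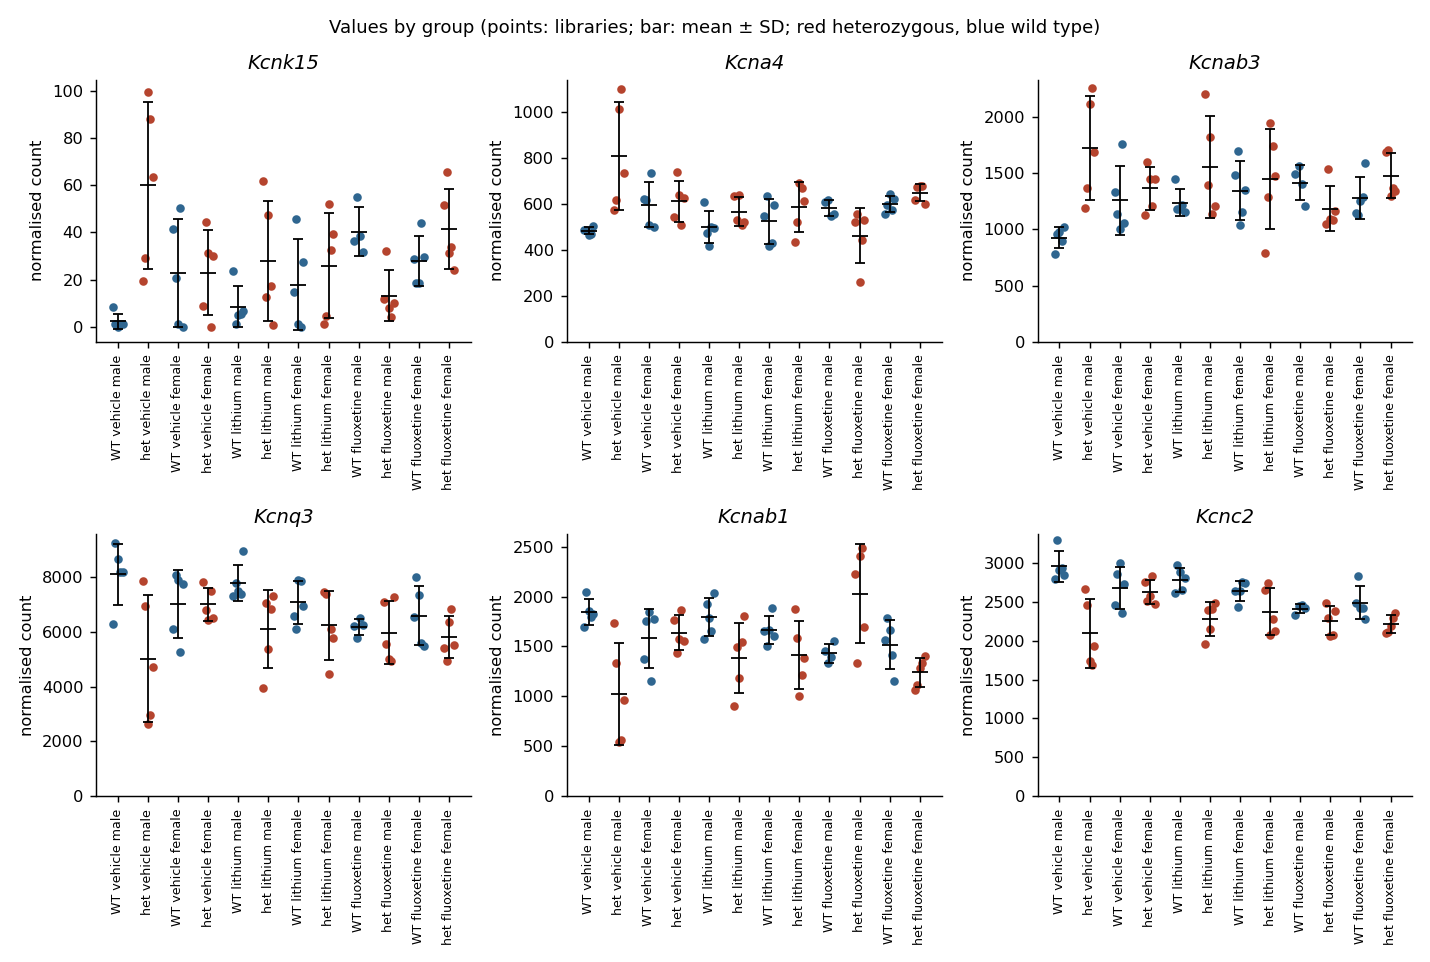
Normalised counts of Kcnk15, Kcna4, Kcnab3, Kcnq3, Kcnab1 and Kcnc2 in each library of the 12 groups (red heterozygous, blue WT; bars are mean ± SD). The heterozygous vehicle males spread widely: Kcnab1 runs from 545.4 to 1730 there and from 1699 to 2049 in WT vehicle males.

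Markers of another brain region moved with these differences. The mean of 13 olfactory bulb markers was 1.42 ± 0.98 (range -0.07 to 2.27, n = 5) in heterozygous and -1.90 ± 0.81 (range -2.63 to -0.53, n = 5) in WT vehicle males, on a log2 scale centred for each marker. All 13 rose there, among them Doc2g (283.5 ± 317.6 in WT, 4933 ± 3085 in heterozygous males) and Barhl2 (4.916 ± 6.18 and 56.0 ± 31.2), and Barhl2 was at 0 in at least 1 WT male. In vehicle females the list mean was -0.20 ± 1.57 in heterozygotes and -0.10 ± 1.62 in WT mice, and 0 of 13 passed. In the male comparison 7 of 8 cortical excitatory neuron markers fell, among them Slc17a7 (33456 ± 8476 in heterozygous, 46215 ± 1494 in WT males).

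Within groups, 23 Kcn genes increased and 36 decreased with the bulb list mean, or 71.1% of them, against 50.2% of all genes. The steepest rises per log2 unit of the list mean were Kcnk15 (1.28 ± 0.06), Kcnn4 (0.56 ± 0.10), Kcnh8 (0.31 ± 0.05), Kcnj5 (0.30 ± 0.11) and Kcnj15 (0.28 ± 0.08). The steepest falls were Kcns3 (-0.22 ± 0.03), Kcnab1 (-0.19 ± 0.03), Kcns1 (-0.18 ± 0.03), Kcng3 (-0.16 ± 0.05) and Kcnk4 (-0.16 ± 0.03). Of the Kv7 genes 4 of 5 decreased and of the silent subunits 5 of 9, with 0 increasing in either family. All 10 genes also passed in vehicle males, in the same direction.

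With the list mean as a covariate, 0 of 83 Kcn genes and 0% of all genes passed between genotypes in vehicle males. The differences then ran from -0.57 to 0.76, where they had run from -1.11 to 4.45, and their median size was 0.15 in place of 0.46. Kcnk15 went to 0.18 ± 0.37, Kcnq3 to -0.32 ± 0.18 and Kcnab1 to -0.36 ± 0.16, with adjusted p of 0.938, 0.7354 and 0.7354 in limma. The average over sexes and the difference between the sexes also had 0 calls each, against 0.0112% and 0% of all genes. Genotype and bulb list mean move together in these males, so their parts cannot be told apart there.

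**Figure D4:**
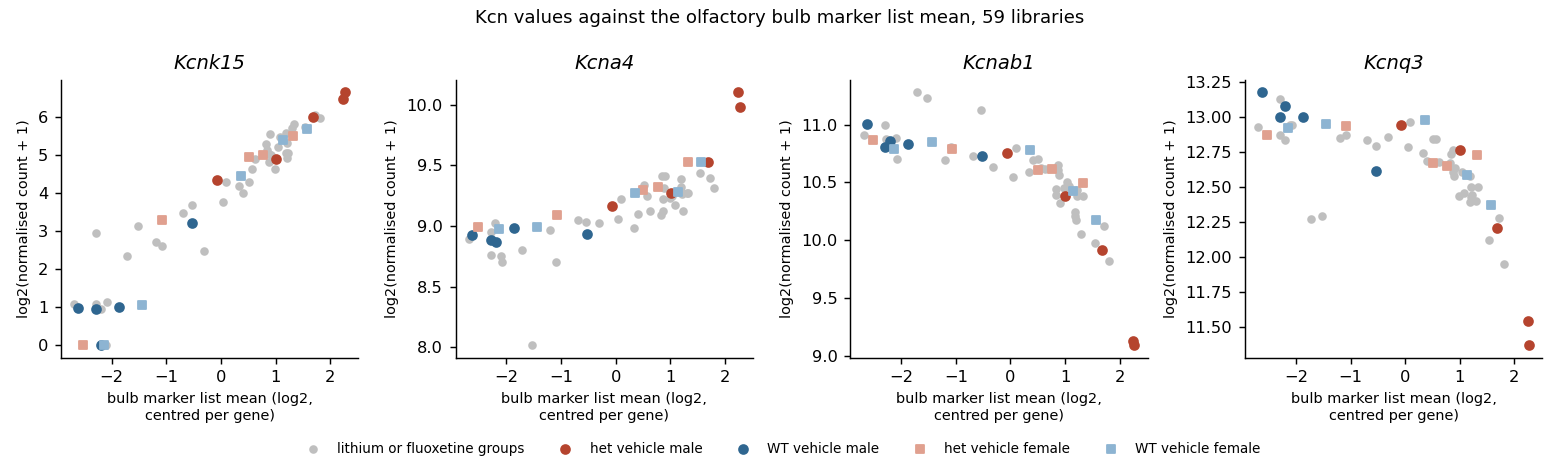
Log2(normalised count + 1) of Kcnk15, Kcna4, Kcnab1 and Kcnq3 against the mean of 13 olfactory bulb markers in each of 59 libraries, with the vehicle groups coloured. Heterozygous vehicle males lie at list means from -0.07 to 2.27 and WT vehicle males from -2.63 to -0.53, while vehicle females of both genotypes cover most of the range.

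Between genotypes under lithium and under fluoxetine no Kcn gene passed. Under lithium 0 of 83 were called with limma and 0 with edgeR, against 0.0112% of all genes. At an unadjusted p under 0.05 there were 25 and 23, and the share of all genes at that threshold is not given here. The 3 of smallest p were Kcnc2 (-0.23 ± 0.06, adjusted p 0.1844), Kcna1 (-0.39 ± 0.12, 0.2328) and Kcne1l (0.49 ± 0.15, 0.2328). Under fluoxetine 0 were called with either tool, against 0.0112% of all genes in limma and 0.246% in edgeR. At an unadjusted p under 0.05 there were 17 and 14, again without a share of all genes. Kcnh3 (-0.19 ± 0.05), Kcnh4 (-0.40 ± 0.12) and Kcng1 (-0.32 ± 0.11) had the smallest p there.

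Averaged over the 3 treatments, 8 Kcn genes rose and 24 fell in heterozygotes, or 38.6% against 21.4% of all genes. This average contains the vehicle males described above, so its family counts are not a separate result. Falls took in 3 of 5 Kv7 genes and 5 of 9 silent subunits, with 0 rises in either family. The largest were Kcnt2 (-0.37 ± 0.11), Kcng3 (-0.34 ± 0.12), Kcns3 (-0.33 ± 0.09), Kcng1 (-0.29 ± 0.06), Kcnv1 (-0.29 ± 0.09) and Kcnh7 (-0.28 ± 0.07). Rises included Kcne1l (0.42 ± 0.09), an auxiliary gene on the X chromosome, Kcnrg (0.37 ± 0.13), Kcna5 (0.30 ± 0.11), Kcnab3 (0.21 ± 0.07), Kcnh2 (0.18 ± 0.06), Kcnd3 (0.13 ± 0.05) and Kcnt1 (0.09 ± 0.03). The count was 19 without het lithium male replicate 1 and 20 without het vehicle male replicate 3. Of 59 fits that left out 1 library, 35 lost the call of Kcnd3, 20 that of Kcng3 and 15 that of Kcna5. Kcnrg lost its call in 7, Kcnab3 in 6 and Kcnh2 in 2. The calls of Kcnt2, Kcns3, Kcng1, Kcnv1, Kcnh7 and Kcne1l were kept in all of them.

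With the bulb list mean as a covariate 3 of the 32 remained, against 0.637% of all genes called in that fit. Kcnc2, the Kv3 gene of fast-spiking interneurons on chromosome 10 (112271121 to 112467024), was at 2307 ± 291.0 (range 1687 to 2829, median 2328, n = 30) in heterozygotes. In WT mice it was at 2669 ± 246.5 (range 2275 to 3290, median 2648, n = 29). The ranges overlapped, and the difference was -0.21 ± 0.04 without (adjusted p 0.0003455, limma) and -0.16 with the covariate (0.002757). Kcne1l, an auxiliary subunit of the Kcne family, had 152.9 ± 47.95 in heterozygotes and 112.1 ± 28.5 in WT mice, with 0.28 under the covariate (0.03875). The silent subunit Kcng1 was at 1204 ± 237.2 and 1457 ± 164.1, with -0.22 under the covariate (0.04895). With the 2 het fluoxetine males also left out, Kcnc2 alone passed (-0.13, adjusted p 0.0181). Interneuron markers moved in this comparison too: of 7, 4 fell and 1 rose (median -0.20), and in vehicle males 4 fell and 3 rose. The mean of the list was -0.041 ± 0.093 (range -0.31 to 0.14, n = 30) in heterozygotes and 0.042 ± 0.056 (range -0.067 to 0.16, n = 29) in WT mice, and no marker was at 0 in any library. Their part in the Kcnc2 result was not tested.

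Few Kcn genes changed under lithium. Over both genotypes 3 rose and 1 fell, or 4.82% of them against 2.12% of all genes, and edgeR gave the same 4 against 2.09%. The rises were Kcnj2 (0.33 ± 0.08), which carries the classical inward rectifier current, the leak channel Kcnk9 (0.19 ± 0.05) and Kcnn2 (0.17 ± 0.04), a calcium-activated channel of the afterhyperpolarisation. The fall was Kcnh5 (-0.30 ± 0.08), an EAG channel. All 4 were also called with the bulb list mean as a covariate (5 genes in all, against 3.69% of all genes) and without the 2 het fluoxetine males (6 genes, against 4.52%). The rises of Kcnn2 and Kcnj2 were not particular to lithium in every fit. With the covariate and without the 2 males, both also rose under fluoxetine over both genotypes. The differences were 0.17 and 0.25 (adjusted p 0.0001821 and 0.03652 in limma), beside 0.17 and 0.32 for lithium in that fit. Neither passed for fluoxetine in the main fit. The lithium and fluoxetine comparisons share their vehicle mice.

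The stretch before the start of the gene was read for the member that fell with both drugs and for the one with the largest rise under lithium, since it is where transcription factors that follow neuronal activity can act. The sequences are the 250 bases upstream of the RefSeq start in GRCm38.p6, 5′ to 3′ on the gene's strand. Kcnh5 is on the minus strand (chr12:75177333-75177582) and Kcnj2 on the plus strand (chr11:111065914-111066163). Capitals mark a half-site of the cyclic AMP response element, TGACG or on the other strand CGTCA.
Kcnh5: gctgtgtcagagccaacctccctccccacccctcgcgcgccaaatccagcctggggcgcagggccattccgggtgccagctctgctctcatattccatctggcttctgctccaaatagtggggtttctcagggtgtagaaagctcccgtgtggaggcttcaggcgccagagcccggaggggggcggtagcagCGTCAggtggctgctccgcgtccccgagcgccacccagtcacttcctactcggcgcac
Kcnj2: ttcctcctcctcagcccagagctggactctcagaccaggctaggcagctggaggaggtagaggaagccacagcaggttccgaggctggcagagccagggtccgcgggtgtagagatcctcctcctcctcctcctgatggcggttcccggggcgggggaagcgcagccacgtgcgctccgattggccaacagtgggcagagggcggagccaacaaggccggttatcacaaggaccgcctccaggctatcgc
Kcnh5 held 1 half-site and Kcnj2 none. The half-site was found in 17.8% of 32851 windows of this length and in 13 of 83 windows that belong to 60 matched Kcn genes. The full element TGACGTCA, which contains the half-site, was in 1.55% of all windows and in 0 of the Kcn windows, and the AP-1 motif TGACTCA in 4.46% and in 2. A match is a run of letters and was not tested for binding.

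Kcnj2 was at 471.1 ± 67.9 (range 376.7 to 640.0, median 459.4, n = 20) under vehicle and 595.6 ± 110.6 (range 415.5 to 775.6, median 570.1, n = 20) under lithium. The ranges overlapped, and 10 of 10 heterozygous and 9 of 10 WT lithium mice were above the vehicle mean of their genotype and sex. The difference was 0.30 ± 0.11 in heterozygotes and 0.36 ± 0.11 in WT mice, neither past the threshold alone in limma (adjusted p 0.2504 and 0.2342). Kcnn2 was at 911.6 ± 59 (range 800.7 to 1038, n = 20) under vehicle and 1027 ± 71.3 (range 907.6 to 1171, n = 20) under lithium, with 8 of 10 heterozygous and 10 of 10 WT lithium mice above their vehicle mean. Kcnk9 was at 5817 ± 853.0 and 6614 ± 755.6, with 9 of 10 above in each genotype; its call was lost in 13 of 40 fits that left out 1 library.

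Kcnh5 was the one Kcn gene called for lithium within a genotype. In heterozygotes it was at 663.7 ± 91.1 (range 519.0 to 781.5, median 668.7, n = 10) under vehicle and 483.4 ± 55.2 (range 416.1 to 576.0, median 475.2, n = 10) under lithium. The ranges overlapped, and 10 of 10 lithium mice were below the vehicle mean of their sex (-0.45 ± 0.11, adjusted p 0.03116 in limma; 1 of 83 genes against 0.497% of all genes). This call was lost in 10 of 20 fits that left out 1 library. In WT mice it was at 607.7 ± 124.5 under vehicle and 539.2 ± 88.7 under lithium (-0.15 ± 0.11, adjusted p 0.9064), and lithium called 0 of 83 genes there with either tool, against 0.162% of all genes in limma and 0.14% in edgeR, with 9 and 8 at an unadjusted p under 0.05. The difference between the genotypes' lithium effects passed for 0 of 83 (edgeR 0; 0% of all genes), with 6 and 5 at an unadjusted p under 0.05; for Kcnh5 it was -0.30 ± 0.15 (adjusted p 0.9998).

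Under fluoxetine 7 Kcn genes fell in heterozygotes and 0 rose with limma, or 8.43% of them against 4.27% of all genes. Fitted to the compared groups alone, 0 passed. The 7 were Kcnh5 (-0.50 ± 0.11), the silent subunits Kcng4 (-0.36 ± 0.10) and Kcnf1 (-0.26 ± 0.06), the A-type gene Kcna4 (-0.35 ± 0.11), the G protein-gated Kcnj3 (-0.33 ± 0.08), the leak channel Kcnk10 (-0.31 ± 0.08) and the fast-spiking gene Kcnc1 (-0.21 ± 0.04). edgeR called the same 7 as lower and Kcnip3 as higher, against 6.92% of all genes. The same 7 were among 11 called with the bulb list mean as a covariate, against 6.4%. Without het fluoxetine males 3 and 4, Kcnc1 alone was called (-0.17, adjusted p 0.04036), against 0.425% of all genes.

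Kcnh5 under fluoxetine was at 479.6 ± 109.0 (range 246.0 to 613.9, median 499.0, n = 10) in heterozygotes, and 10 of 10 mice were below the vehicle mean of their sex. The lowest values, 246.0 and 355.2, belong to males 3 and 4, and without them the difference was -0.35 ± 0.10 (adjusted p 0.1148). Kcnj3 was at 3252 ± 704.0 (range 1562 to 3768, median 3526) under fluoxetine and 3983 ± 254.0 (range 3531 to 4299, median 3989) under vehicle. Males 3 and 4 were again lowest at 1562 and 2423, all 10 were below the vehicle mean of their sex, and without the 2 the difference was -0.16 ± 0.05 (adjusted p 0.1102). Kcnc1 was at 4245 ± 476.9 (range 3496 to 5055) and 4878 ± 194.3 (range 4574 to 5192), with 9 of 10 fluoxetine mice below.

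In WT mice 1 Kcn gene, Kcnk13, passed under fluoxetine, against 0.447% of all genes, and it rose. Fitted to the compared groups alone 11 passed. The 0.447% does not hold for that fit and its own share of all genes is not given here, so the 11 show no excess of Kcn genes. Besides Kcnk13, the rises there were Kcnk15 (2.79), Kcnh8 (0.76), Kcna5 (0.68), Kcnab3 (0.33), Kcnd3 (0.29), Kcnip1 (0.27) and Kcnh2 (0.25). The falls were Kcnt2 (-0.33), Kcnip4 (-0.21) and Kcnc2 (-0.20). In the fit to all groups with the bulb list mean as a covariate, no Kcn gene passed for fluoxetine in WT mice. Kcnk13, a leak channel of microglia, was at 189.9 ± 27.1 (range 155.2 to 223.3, median 198.1, n = 9) under fluoxetine and 119.7 ± 37.2 (range 67.56 to 183.5, median 112.7, n = 10) under vehicle. The ranges overlapped, and 9 of 9 fluoxetine mice were above the vehicle mean of their sex (0.72 ± 0.17, adjusted p 0.03719 in limma). The call was lost in 12 of 19 fits that left out 1 library. Kcnk13 increased with the bulb list mean (0.22 ± 0.03 per unit), which was 0.84 ± 0.38 in WT fluoxetine and -1.0 ± 1.53 in WT vehicle mice, and with that covariate the difference was 0.31 ± 0.14 (adjusted p 0.3942). None of 7 microglia markers passed in this comparison.

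The genotypes' fluoxetine effects did not differ past the threshold for any of the 83 genes with limma or edgeR (0% of all genes). In each, 27 had an unadjusted p under 0.05, and the share of all genes at that threshold is not given here. The count of calls was 13 without het fluoxetine male replicate 2 and 10 without het vehicle male replicate 1. Kcnc1 (-0.25 ± 0.06), Kcnk10 (-0.39 ± 0.12) and Kcnd2 (-0.30 ± 0.09) had the smallest p, with adjusted p of 0.1011, 0.1011 and 0.1014. Over both genotypes 2 rose, Kcnk13 (0.45 ± 0.12) and Kcnd3 (0.20 ± 0.06), and 3 fell, Kcnh5 (-0.28 ± 0.08), Kcng4 (-0.24 ± 0.07) and Kcnj3 (-0.21 ± 0.06), or 6.02% against 3.09% of all genes. Fitted to the compared groups alone 1 passed. Without the 2 het fluoxetine males 3 were called, against 2.36% of all genes, and Kcnj3 alone was among these 5.

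**Figure D5:**
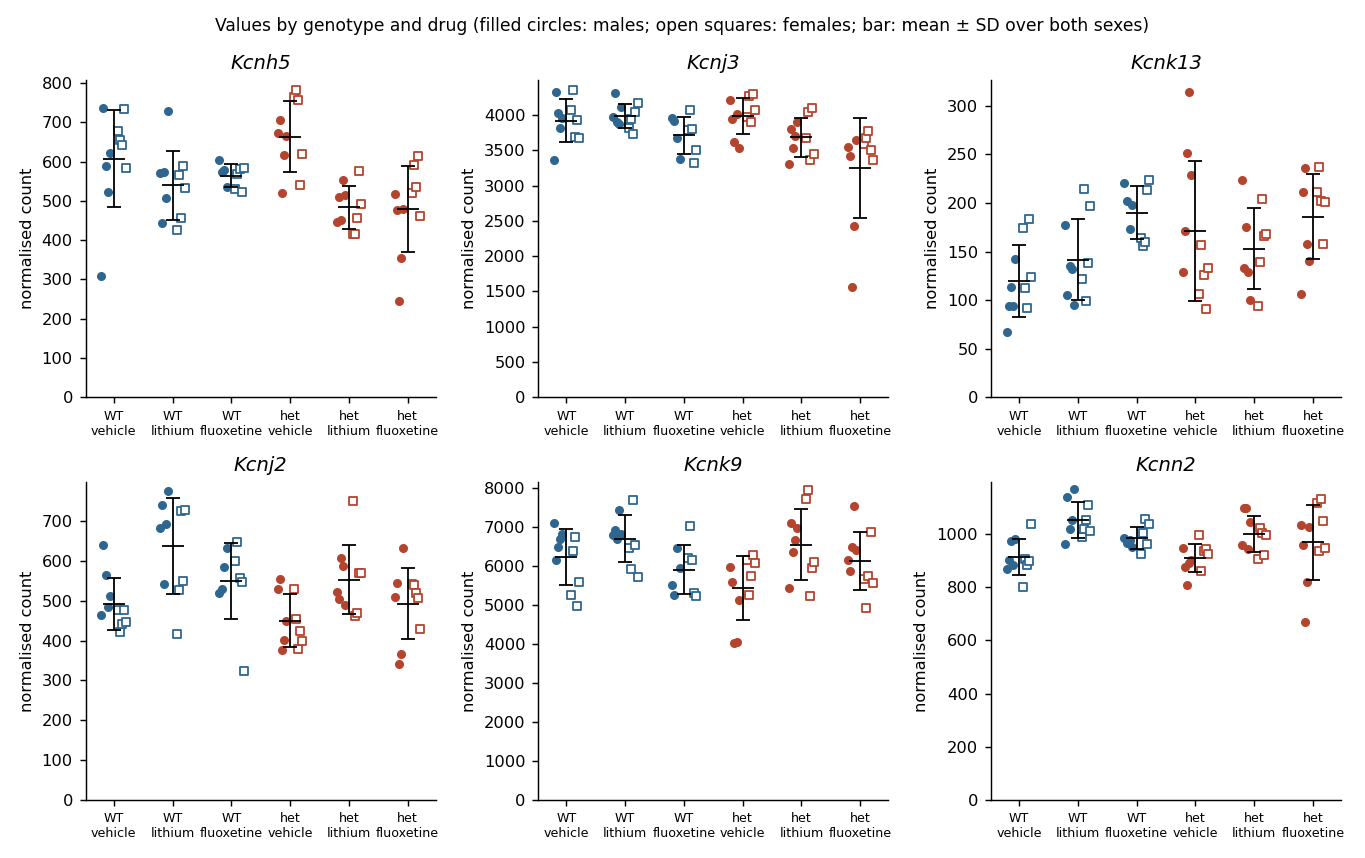
Normalised counts of Kcnh5, Kcnj3, Kcnk13, Kcnj2, Kcnk9 and Kcnn2 in each library by genotype and drug (filled circles males, open squares females; bars are mean ± SD over both sexes). Heterozygous Kcnh5 means are 663.7 under vehicle, 483.4 under lithium and 479.6 under fluoxetine, and the 2 lowest heterozygous fluoxetine points of Kcnj3 are at 1562 and 2423.

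Markers of recent neuronal activity moved with the drug comparisons. In heterozygotes the mean of 8 immediate early genes was 0.62 ± 0.57 (range -0.18 to 1.27, n = 10) under vehicle, -0.03 ± 0.46 (range -0.66 to 0.48, n = 10) under lithium and -0.37 ± 0.31 (range -0.81 to 0.27, n = 10) under fluoxetine. In WT mice it was 0.25 ± 0.29 (n = 10), -0.16 ± 0.37 (n = 10) and -0.34 ± 0.35 (n = 9). Over both genotypes 6 of the 8 fell with lithium and 7 with fluoxetine. Within heterozygotes 2 and 8 fell and within WT mice 0 and 2, but the difference between the genotypes' effects passed for 0 of 8 with either drug. Their part in the Kcnh5 result was not tested.

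Within groups, some Kcn genes moved with markers of other cell types. With the mean of 9 myelin markers 4 increased and 0 decreased, or 4.82% against 4.19% of all genes. The 4 were Kcnj5 (1.81 ± 0.30), Kcna1 (0.37 ± 0.10), the Kv1 beta subunit Kcnab3 (0.36 ± 0.11) and Kcnn2 (0.18 ± 0.04). With 9 vascular markers Kcnk5 increased (2.13 ± 0.56) and the Kv1 genes Kcna1 (-1.74 ± 0.31), Kcna3 (-1.25 ± 0.31) and Kcna2 (-0.53 ± 0.17) decreased, or 4.82% against 7.99%. The Kcna2 call was lost in 36 of 59 fits that left out 1 library, and 1 of the 4 passed with a replicate block. The myelin and vascular lists correlated at r = -0.448 after group means were removed. They were not fitted together, so the opposite slopes of Kcna1 on them cannot be told apart. With 9 striatal markers Kcnn1 alone passed (0.61 ± 0.13), 1.2% against 0.447%. With 6 choroid plexus markers 19 increased and 30 decreased, or 59% against 34.3%; the steepest were Kcnk15 (1.74), Kcnn4 (0.85), Kcnj5 (0.62), Kcnh8 (0.41) and Kcna5 (0.345), and Kcnab1 (-0.28), Kcns3 (-0.27), Kcnt2 (-0.21), Kcns1 (-0.21) and Kcnq3 (-0.21). That list correlated with the bulb list at r = 0.674 over the 59 libraries after group means were removed, and with the bulb list as a second covariate 0 of 83 passed. The shares for myelin and vascular markers are near those of all genes.

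Other genes of potassium channel complexes and the related HCN channels, which pass a depolarising current near rest, also changed in both directions. Of 21 tested, 5 rose and 9 fell between genotypes in vehicle males, with a median of -0.10, where 36.7% of all genes were called. The rises were Lrrc55 (1.51 ± 0.35), a gamma subunit of the Kcnma1 channel, Hcn4 (1.18 ± 0.25; 619.3 ± 178.5 in heterozygous and 264.2 ± 12.5 in WT males), Lrrc38 (0.52), Hcn3 (0.46) and Amigo1 (0.16). The falls included Lgi1 (-0.64 ± 0.14), which binds the Kv1 complex, Lgi3 (-0.49 ± 0.12), the regulatory subunits Abcc8 (-0.34 ± 0.10) and Abcc9 (-0.34 ± 0.13) of the ATP-sensitive channel, and Adam22 (-0.28 ± 0.07). With the bulb list mean 6 of the 21 increased and 12 decreased, where 50.2% of all genes passed. Among these, Lrrc55, Hcn4, Lgi1, Lgi3 and Abcc8 moved in the same direction as in the males. Over all treatments Hcn4 rose (0.43) and Lgi1 (-0.17), Lgi3 (-0.15), Abcc8 (-0.125) and Adam22 (-0.09) fell; these 5 of 21 are near the 21.4% of all genes called there. Vehicle females had 0 of 21, and lithium had 0 of 21 in either genotype. Under fluoxetine in heterozygotes Amigo1 (-0.11 ± 0.03), a partner of Kv2 channels, fell, and 0 others changed. That 1 of 21 is near the 4.27% of all genes called there.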

How the data were processed

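RNA from prefrontal cortex of 59 mice was sequenced as stranded mRNA libraries, per the labels. The deposited signal is a read count per gene divided by a size factor of the library; the authors' tools were Salmon 0.11.2, R 3.6.0 and DESeq2 1.19.11 with GRCm38, per the submitters' processing notes. Whether counting used strand is not given in the sources used here. Dividing by the smallest step of each library gave whole reads for 100% of values within 0.01.

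Genes at 10 or more in at least 4 libraries were kept (17901). Values were tested as log2(value + 1) by limma 3.58.1 (R 4.3.3), with 12 group means and a mean-variance trend, and slopes on marker list means were fitted within groups. Symbols, coordinates and exonic lengths came from GENCODE M21, and 11 identifiers had no symbol. The limma test of genotype under vehicle was checked on simulated counts drawn independently for each gene. These held no variation shared with the bulb markers, so the check does not cover that part of the spread.

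The genes and lists were chosen with earlier results of these data known. Genes were named by rule: every called gene up to 8, otherwise the 6 largest rises and falls; the 3 of smallest p where none was called; the 5 steepest called slopes in each direction. Some genes that the rule would name are not reported here. Alternatives were edgeR 4.0.16 on the recovered counts, TMM scaling, a pseudocount of 5, no filter, the bulb list as a covariate, 2 het fluoxetine males left out, both together, the compared groups alone, a replicate block, and each library left out. The bulb list as a second covariate in the slopes on other lists was chosen after seeing the data. Replicates differed beyond sampling noise in all 116 pairs within groups.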

Additional observations from a re-analysis of the deposited data

Results flagged for a closer look

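In 11 of 240 tests of 20 genes in 12 groups, 1 mouse stood far from the others of its group, where chance gives about 1 in 20. Kcnk15 read 31.99 in het fluoxetine male replicate 2 (others 4.06 to 11.84), 23.62 in WT lithium male replicate 1 (others 1.124 to 6.752) and 8.189 in WT vehicle male replicate 1 (others 0.0 to 1.016). Kcnab3 was high in the first 2 of these libraries, at 1537.3 (others 1043.6 to 1163.6) and 1452.0 (others 1156.6 to 1214.0). Kcnc1 read 5045.3 in WT lithium male replicate 3 (others 4629.3 to 4707.5) and Kcnc2 3290.0 in WT vehicle male replicate 2 (others 2799.5 to 2939.1). Kcnd3 read 4156.8 in het fluoxetine male replicate 3 (others 2293.7 to 2736.8). Kcnt1 was low in het vehicle female replicate 2, at 3713.8 (others 4543.7 to 4816.2). Kcnk10 was low in WT fluoxetine male replicate 3, at 253.0 (others 327.1 to 342.1), and high in WT vehicle male replicate 5, at 319.1 (others 271.7 to 281.2).

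The genotype effect under vehicle differed between females and males, by limma's test of the female minus the male effect, for the 12 named genes. The difference was negative for Kcnk15 (-4.01), Kcnh8 (-2.19), Kcnj15 (-2.15), Kcna5 (-1.27), Kcnk13 (-1.20) and Kcnip1 (-0.80), all of which were higher in heterozygous than in WT males. It was positive for Kcns3 (1.13), Kcnab1 (1.06), Kcnk4 (1.01), Kcns1 (0.98), Kcnq3 (0.82) and Kcnj6 (0.76), all lower in heterozygous males. Adjusted p ran from 0.01656 to 0.04533. The 12 were named because they passed. Without het vehicle male replicate 3, or with the compared groups fitted alone, no Kcn gene passed. The olfactory bulb list mean differed between the male groups and not between the female groups. With it as a covariate 0 of these 12 and 0% of all genes passed, so that fit shows nothing particular to the 12. Genotype and bulb list mean move together in the males, so their parts cannot be told apart.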

How the results depend on the processing

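Counts are of Kcn genes called, and the share of all genes called differs between these fits and is not given for each. With the bulb list mean as a covariate they were 0 for genotype under vehicle, in males and for the difference between sexes, 3 over all treatments, 3 for lithium in heterozygotes, and 11, 0 and 12 for fluoxetine in heterozygotes, in WT and over both. With het fluoxetine males 3 and 4 also left out they were 0, 0, 0 and 1 for the genotype results, 4, 2 and 9 for lithium in heterozygotes, in WT and over both, and 3 for fluoxetine in heterozygotes. Without those 2 males alone they were 38 for genotype under vehicle, 3 and 1 for lithium in heterozygotes and WT, 1, 4 and 3 for fluoxetine in heterozygotes, WT and both, and 2, 7 and 12 for the striatal, myelin and vascular slopes. Fitted to the compared groups alone they were 1 for genotype under vehicle, 0 for the difference between sexes, 1 for lithium in WT, and 0, 11 and 1 for fluoxetine in heterozygotes, WT and both. The striatal count was 4 with a pseudocount of 5 and 0 with TMM scaling, and the vascular count 10 with TMM. With the bulb list as a second covariate the myelin, vascular and choroid counts were 8, 8 and 0. Reversed signs were Kcnn4 in vehicle males (-0.0878, covariate and without the 2 males), Kcnk15 for the difference between sexes (0.39 with the covariate, 0.46 with both) and the choroid slopes of Kcns3 (0.0021) and Kcns1 (0.0226) under the second covariate. The cause was not tested.

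Leaving out 1 library gave 0 to 42 for genotype under vehicle, 39 to 58 in males, 0 to 0 in females, 0 to 50 for the difference between sexes, 19 to 40 over all treatments, 0 to 0 under lithium and 0 to 5 under fluoxetine. The difference between sexes was 18 and 13 without het vehicle females 1 and 4, 15 without WT vehicle female 1 and 22 without WT vehicle male 2. Lithium gave 0 to 3 in heterozygotes, 0 to 1 in WT, 3 to 6 over both and 0 to 0 for the interaction. Fluoxetine gave 3 to 15 in heterozygotes, the lowest without het fluoxetine male 3 and the highest without male 2, 0 to 4 in WT, 1 to 9 over both and 0 to 13 for the interaction. The slopes gave 56 to 61 (bulb), 0 to 25 (striatal), 3 to 6 (myelin), 2 to 12 (vascular) and 44 to 52 (choroid).

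The labels do not say what the replicate numbers mean, and no pairing by number was seen. In 0 of 18 pairs of groups did every same-numbered pair correlate above 0.1 (range -0.591 to 0.392). Of 87 same-numbered pairs 13 correlated best with their own number. A pairing weaker than the other variation between libraries, such as that with the bulb markers, would not be seen in this way. With a replicate block the counts were 18 for genotype under vehicle, 56 in males, 34 for the difference between sexes, 32 over all treatments, 6 for fluoxetine in heterozygotes, 4 for lithium over both, 0 for the striatal and 1 for the vascular slope. Of 113 named results 112 kept direction and side of the threshold under TMM, 107 with edgeR, 113 without a filter, 113 with a pseudocount of 5 and 104 with the block. Other fits, which do not cover all named results, kept fewer. Fitted to the compared groups alone 31 were the same and 40 weaker. With the bulb covariate 36 were the same, 47 weaker and 1 reversed. With the 2 het fluoxetine males also left out 23 were the same, 57 weaker and 2 reversed. Low counts limit precision: Kcnk15 read 0.0 in some libraries.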
